A study of Mus musculus with 10 samples.

Results

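Regulatory T cells (Tregs) from co-culture on primary astrocytes were compared with Tregs taken from the spleen, gene by gene. The co-cultured cells, called iB-Treg (A), had been kept for 6 days on glial cells of neonatal mouse brain, mostly astrocytes, with anti-CD3 and anti-CD28 antibodies (2 µg/ml each) and IL-2 (20 ng/ml). They received neither IL-33, serotonin nor chemokines, so that they show the co-culture alone. SP-Tregs were splenic Tregs without treatment. Both groups came from C57BL/6J mice by the labels, aged 8 to 12 weeks by the methods, carrying a human CD2 reporter in the Foxp3 locus, and hCD2+ cells were isolated with magnetic beads before RNA was made. Each group had 2 libraries, out of 10 in the series, and the comparison addresses how far the transcriptome after 6 days with astrocytes and receptor stimulation lies from that of a splenic Treg. The members were all genes whose counts could be placed in both groups, 25404 of the 55401 gene IDs in the table. Co-culture, antibodies, IL-2 and time in culture differ between the groups together and cannot be told apart, and no Tregs cultured without astrocytes were analysed here.

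Tregs hold immune responses in check and are defined by the transcription factor Foxp3. Signals through the T cell receptor, CD28 and the IL-2 receptor drive resting Tregs into the cell cycle and into an effector state, in which genes for staying in lymphoid organs give way to genes for inhibitory function and for entry into tissue. Tissue Tregs, including those of the injured brain, are known for ST2 (the IL-33 receptor, gene Il1rl1), Klrg1, Gata3, amphiregulin (Areg) and high Ctla4.

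Depth and makeup differed between the groups. The iB-Treg (A) libraries held 16388161 and 15628261 counts and the SP-Treg libraries 6634583 and 5207713. Mitochondrial ribosomal RNA took 0.131 ± 0.0139% of the counts in iB-Tregs (A) and 13.99 ± 0.537% in SP-Tregs (mean ± SD, n = 2 each). Small and structural RNA took 0.0261 ± 0.00751% of the counts in iB-Tregs (A) and 11.2 ± 0.637% in SP-Tregs. The kind of library and the group cannot be told apart. In the table, the SP-Treg counts of 21289 members stand 1 to 19 rows below their gene ID and were moved back. Their log2 counts then correlated with those of iB-Treg (A) across genes with r = 0.919, against 0.275 as deposited (genes are not independent replicates). The 2 libraries of each group differed by more than counting noise, with a chi-square per degree of freedom of 3.87 in iB-Treg (A) and 5.54 in SP-Treg. Whether they came from separate animals or cultures is not stated, so that p-values measure the spread between libraries, which may be technical.

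Most of the measured transcriptome differed. Of 12196 genes with enough counts to test, 4975 were higher and 4150 lower in iB-Tregs (A), which makes 40.8% and 34% of the genes tested and 74.8% in all (edgeR quasi-likelihood test, Benjamini-Hochberg adjusted p under 0.05). The remaining 3071 genes did not pass. A change over 2-fold was found for 43.3% of the genes, 3043 higher (25%) and 2239 lower (18.4%). Over all genes tested, the median log2 fold change, iB-Treg (A) minus SP-Treg, was 0.12, and other scalings and filters moved it between 0.04 and 0.29. With so many genes past the threshold, a list in which about 40.8% of members rose and 34% fell does not stand apart from the background, and the lists below are read against these shares. Levels are CPM, counts scaled to library size with TMM factors. Where a group had no count at all, the fold is a lower limit that sets its 2 libraries together at 3 counts. Each log2 fold change is given with its standard error.

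**Figure D1:**
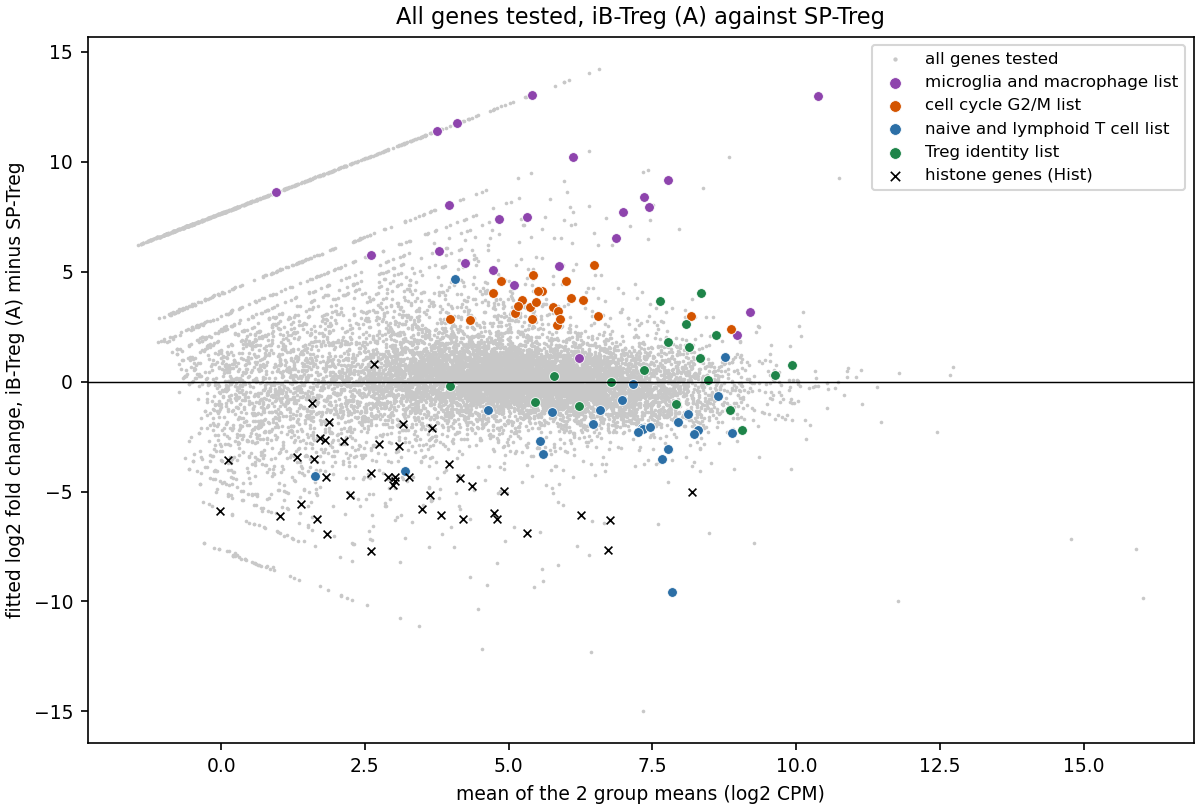
Fitted log2 fold change of each of the 12196 genes tested (vertical axis, iB-Treg (A) minus SP-Treg) against the log2 of the mean of both group means in CPM (horizontal axis). Colored points are members of 4 gene lists and crosses are histone genes whose symbol begins with Hist. The microglia and macrophage list and the G2/M list lie above 0. Nearly all naive and lymphoid T cell genes and these histone genes lie below 0. The straight lines of points at the upper and lower edge are genes without a count in one group, whose fitted values are no bounds.

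**Figure D2:**
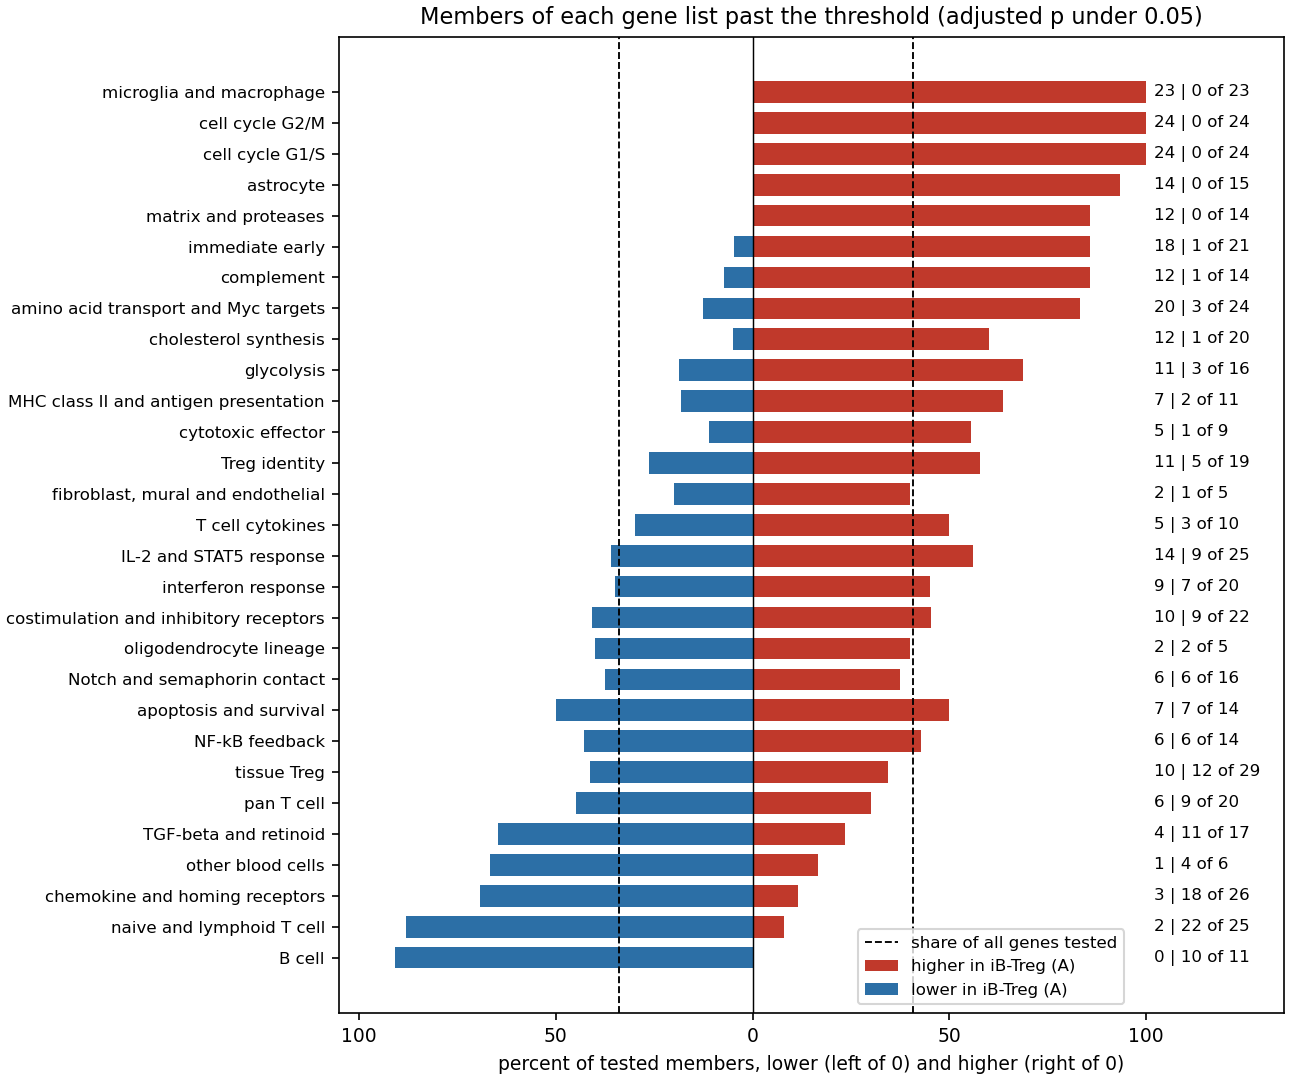
Percent of the tested members of 29 gene lists that were higher (red, right of 0) and lower (blue, left of 0) in iB-Treg (A) than in SP-Treg, with the counts at the right. Dashed lines mark the shares over all 12196 genes, 40.8% higher and 34% lower: both cell cycle lists reach 100% higher, and the naive and lymphoid T cell list 88% lower.

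The T cell label was checked first. Trac and Trbc1, constant regions of the receptor chains, and the kinase Lck did not pass the test, while chains of the CD3 complex did. Trac, the constant region of the receptor alpha chain, had 338 and 339 CPM in iB-Tregs (A), against 357 and 359 CPM in SP-Tregs, and Trbc1 of the beta chain had 212 and 201 CPM in iB-Tregs (A), against 208 and 192 CPM in SP-Tregs. Neither passed the test (adjusted p = 0.38 for Trac and 0.66 for Trbc1). Lck, the kinase at the receptor, had 479 and 475 CPM in iB-Tregs (A), against 448 and 489 CPM in SP-Tregs and did not pass either (adjusted p = 0.78). Of 20 pan T cell genes, 6 rose, 9 fell and 5 did not pass, with a median log2 fold change of -0.15. The shares over all genes tested were 40.8% higher and 34% lower, and these counts do not lie far from them. Cd4 fell to 294 and 291 CPM in iB-Tregs (A), against 594 and 659 CPM in SP-Tregs (log2 fold change -1.10 ± 0.09, adjusted p = 1.4e-07). Cd3e, a signaling chain of the receptor complex, fell more than its partners (log2 fold change -1.59 ± 0.09, adjusted p = 8.1e-09), while Cd3g fell by less (-0.97) and Cd3d was slightly higher (0.40). Bcl11b, a transcription factor that maintains T cell identity, had 103 and 100.02 CPM in iB-Tregs (A), against 699 and 709.8 CPM in SP-Tregs (log2 fold change -2.80 ± 0.09, adjusted p = 3.1e-11). Fold changes here also ran with gene length, as described further below. With that trend removed, Cd3d was no longer past the threshold and its log2 fold change was -0.094, and Lck came out lower at -0.396.

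Transcripts of other cells were measured beside the Tregs, and in iB-Tregs (A) they were those of microglia and macrophages. All 23 tested members of this marker list were higher, with a median log2 fold change of 7.50, or 6.56 with the genes absent from SP-Tregs set at their bounds. Without the genes in runs of neighbors near 0 in SP-Tregs, described further below, 18 members were tested and all were higher, with a median of 6.25. Without SP-9 the median of the 23 was 6.85. Lyz2, the lysozyme of macrophages, had 2712 and 2598 CPM in iB-Tregs (A), against 0.544 and 0 CPM in SP-Tregs (log2 fold change 12.97 ± 0.23, adjusted p = 1.2e-12). Tyrobp, the adaptor of many myeloid receptors, had 84 and 85.6 CPM in iB-Tregs (A) and no count in SP-Tregs, which makes it at least 264-fold higher. The fractalkine receptor Cx3cr1 had 135 and 142 CPM in iB-Tregs (A), against 0.181 and 0 CPM in SP-Tregs (log2 fold change 10.21 ± 0.29, adjusted p = 1.5e-11). The summed level of the list's 24 measured genes was 7111 and 6858 CPM in iB-Tregs (A), against 352 and 396 CPM in SP-Tregs. Fcgr3 (an Fc receptor), Trem2 (a lipid receptor of microglia) and C1qa (complement) rose with them, and all of these are near 0 in SP-Tregs. In bulk RNA, fewer cells of a type and less RNA per cell cannot be told apart, and so cannot myeloid cells in the isolate and myeloid RNA carried by Tregs.

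Astrocyte transcripts were much scarcer. Of 15 tested astrocyte genes 14 were higher and none was lower, with a median of 4.79, or 2.81 with genes at 0 in SP-Tregs set at their bounds. The median rests on few counts in SP-Tregs and was 6.86 without SP-9 and 5.78 without SP-10, with 14 of 16 higher each time. Clu (clusterin) had 8.85 and 6.11 CPM in iB-Tregs (A) and no count in SP-Tregs (at least 23.4-fold higher). Gja1, the gap junction protein connexin 43, had 4.97 and 6.01 CPM in iB-Tregs (A) and no count in SP-Tregs (at least 17.1-fold higher). The water channel Aqp4 had 2.1 and 2.76 CPM in iB-Tregs (A) and likewise no count in SP-Tregs. The defining filament gene Gfap, added after its values were seen, had 2.63 and 2.15 CPM in iB-Tregs (A), against 0 and 0.26 CPM in SP-Tregs, and S100b and Gjb6 were at or near 0 in all 4 libraries. Most of the list's summed level, 1795 and 1745 CPM in iB-Tregs (A) against 528 and 605 CPM in SP-Tregs, was Vim, which T cells also express (added after its values were seen). Neuronal genes were near 0: of 10, 2 could be tested and 1 was higher, and of the 10 genes of the oligodendrocyte lineage 5 could be tested, 2 of them higher and 2 lower. Of 15 fibroblast, mural and endothelial genes 5 could be tested, with 2 higher and 1 lower.

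B cell transcripts went the other way. Of 11 tested B cell genes 10 were lower in iB-Tregs (A), with a median of -7.17, or -5.06 with genes at 0 in iB-Tregs (A) set at their bounds. It was -6.20 without A-Treg1. Without SP-9, 7 of 8 tested genes were lower and the median was -3.66, and without SP-10, 9 of 10 were lower and it was -5.54. Ms4a1 (CD20) had no count in iB-Tregs (A), against 10.5 and 8.85 CPM in SP-Tregs, which makes it at least 134-fold lower. Pax5, the factor of B cell identity, had 0 and 0.15 CPM in iB-Tregs (A), against 11.8 and 12.2 CPM in SP-Tregs. Of 15 markers of other blood cells, 6 could be tested, 1 higher (Pf4) and 4 lower (Cd8a and Cd8b1 of CD8 T cells, Eomes and Klrb1c of NK cells). The call for Cd8a was lost without either iB-Treg (A) library. The part of these cells in the gene groups that follow was not tested.

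Myeloid cells also make complement, matrix proteases and MHC class II. The complement and matrix lists were higher along with the markers above, while the MHC class II list moved far less. The part of myeloid cells in these lists was not tested. Of 14 tested complement genes 12 were higher and 1 lower, with a median of 7.70, or 6.06 with bounds. Without the genes in near-zero runs 9 of 11 were higher (median 6.74), and without A-Treg1 or A-Treg2 10 and 9 of 11 (medians 8.34 and 8.46). C3, the central component, had 909 and 899.6 CPM in iB-Tregs (A), against 1.09 and 0.26 CPM in SP-Tregs (log2 fold change 10.22 ± 0.20, adjusted p = 1.4e-12). The one that fell was Cd55, which shields cells from complement, with 16.4 and 18.3 CPM in iB-Tregs (A), against 52 and 52 CPM in SP-Tregs (log2 fold change -1.58 ± 0.13, adjusted p = 1.4e-07). Of 14 matrix genes 12 were higher and none lower (median 7.06, or 3.21 with bounds), and fibronectin (Fn1) had 314 and 328 CPM in iB-Tregs (A), against 0.725 and 0 CPM in SP-Tregs. Of 11 tested genes of MHC class II and antigen presentation 7 were higher and 2 lower (median 0.79), or 5 and 3 with the length trend removed (median 0.30). The latter counts lie near the shares over all genes tested, 40.8% higher and 34% lower. H2-Ab1, a class II chain, had 52.6 and 54.7 CPM in iB-Tregs (A), against 23.4 and 19.5 CPM in SP-Tregs (log2 fold change 1.31 ± 0.13, adjusted p = 1.2e-06), while Ciita, the activator of class II genes, had 3.44 and 3.41 CPM in iB-Tregs (A), against 5.98 and 6.5 CPM in SP-Tregs (log2 fold change -0.86 ± 0.31, adjusted p = 0.022). The Ciita call was lost when either iB-Treg (A) library was left out.

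Treg identity genes split into a rising and a falling set. Of 19 tested members 11 rose, 5 fell and 3 did not pass, with a median of 0.30. Over all genes tested 40.8% rose and 34% fell. The sharpest rise was in Ctla4, the inhibitory receptor through which Tregs restrain antigen-presenting cells. It had 591 and 636 CPM in iB-Tregs (A), against 36.8 and 38.2 CPM in SP-Tregs, about as high in both co-cultured libraries and far above both splenic ones (log2 fold change 4.03 ± 0.10, adjusted p = 7.6e-12). The costimulatory receptors of the TNF receptor family rose with it. Tnfrsf18 (GITR) had 647 and 618 CPM in iB-Tregs (A), against 136 and 154 CPM in SP-Tregs (log2 fold change 2.13 ± 0.09, adjusted p = 6.6e-10). Tnfrsf9 (4-1BB) had 329 and 347 CPM in iB-Tregs (A), against 86.4 and 107 CPM in SP-Tregs (log2 fold change 1.82 ± 0.10, adjusted p = 7.1e-09), and Tnfrsf4 (OX40) had 426 and 409.5 CPM in iB-Tregs (A), against 153 and 129 CPM in SP-Tregs (log2 fold change 1.56 ± 0.10, adjusted p = 1.4e-08). Il2ra, the high-affinity chain of the IL-2 receptor, rose by less, to 1185 and 1282 CPM in iB-Tregs (A), against 717 and 719.6 CPM in SP-Tregs (log2 fold change 0.78 ± 0.09, adjusted p = 4.1e-06). Its partner Il2rb was barely higher (log2 fold change 0.30 ± 0.09, adjusted p = 0.0081), and the call was lost without either iB-Treg (A) library. Socs2, a feedback inhibitor of cytokine signaling, Capg, an actin-capping protein, and Nt5e (CD73, which makes adenosine) also rose, with log2 fold changes of 3.66, 2.62 and 1.06.

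Foxp3, which defines the lineage, and other members of the list were lower. Foxp3 itself had 266 and 267 CPM in iB-Tregs (A), against 662 and 641 CPM in SP-Tregs, clearly lower in both co-cultured libraries (log2 fold change -1.29 ± 0.08, adjusted p = 1.7e-08). Ikzf2 (Helios), a marker of Tregs from the thymus, had 178 and 202 CPM in iB-Tregs (A), against 924 and 829.7 CPM in SP-Tregs and fell further (log2 fold change -2.21 ± 0.10, adjusted p = 7.1e-10). Nrp1 (neuropilin 1) had 158 and 158 CPM in iB-Tregs (A), against 346 and 300.0 CPM in SP-Tregs (log2 fold change -1.03 ± 0.09, adjusted p = 3.7e-07), and Gpr83, a receptor enriched on Tregs, had 46.9 and 48 CPM in iB-Tregs (A), against 105 and 99.4 CPM in SP-Tregs (log2 fold change -1.11 ± 0.10, adjusted p = 3.0e-07). Itgb8, the integrin chain that activates TGF-beta, also fell (log2 fold change -0.94 ± 0.13, adjusted p = 2.4e-05). Ikzf4 (Eos), a partner of Foxp3, moved the other way, with 188 and 199 CPM in iB-Tregs (A), against 130.5 and 136 CPM in SP-Tregs (log2 fold change 0.54 ± 0.09, adjusted p = 9.5e-05). Izumo1r (folate receptor 4), Swap70 and Ebi3 did not pass, and with the length trend removed Izumo1r came out lower, at -0.42. The direction of Ctla4, Foxp3 and Ikzf2 and their calls were the same under every alternative that tested them, which leaves out only the fit to the rows that stand in place. The fall of Foxp3 lay between those of the pan T cell genes Cd4 (-1.10) and Cd3e (-1.59), while Cd3d was higher. These are RNA levels. By flow cytometry of protein, the paper reports marked CD25 and Foxp3 expression in all its co-culture conditions.

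**Figure D3:**
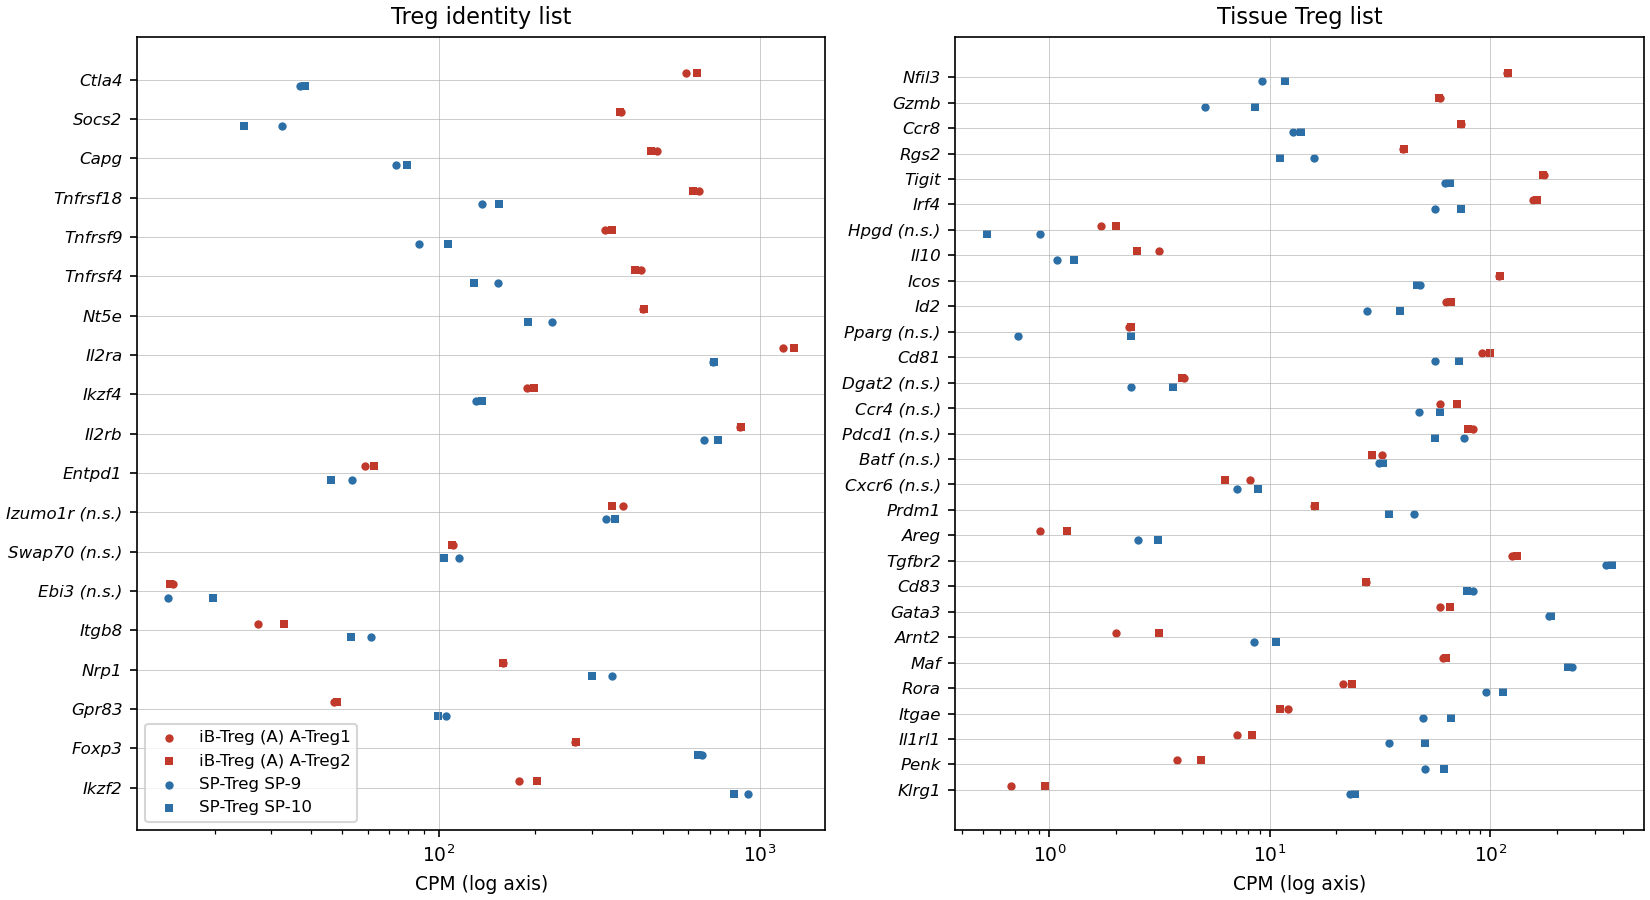
Level of each tested member of the Treg identity list (left panel) and the tissue Treg list (right panel) in CPM on a log axis, with iB-Treg (A) in red just above SP-Treg in blue, and a circle and a square for the 2 libraries of a group. Genes are ordered by log2 fold change and n.s. marks those not past the threshold: Ctla4 and Nfil3 stand at the top of their lists, Ikzf2 and Klrg1 at the bottom.

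Tissue Treg genes moved in both directions, at shares near those over all genes tested (40.8% higher and 34% lower). Of 29 members 10 rose, 12 fell and 7 did not pass. The median was 0.28, or -0.22 with the length trend removed and -0.01 without SP-9. Among the higher ones were Nfil3, Ccr8, Tigit, Irf4, Icos, Id2 and Gzmb. Nfil3, a transcription factor that cytokines induce, had 119 and 121 CPM in iB-Tregs (A), against 9.24 and 11.7 CPM in SP-Tregs (log2 fold change 3.54 ± 0.14, adjusted p = 2.0e-10). Ccr8, a chemokine receptor of tissue and tumor Tregs, had 73.6 and 73.8 CPM in iB-Tregs (A), against 12.7 and 13.8 CPM in SP-Tregs (log2 fold change 2.49 ± 0.13, adjusted p = 3.2e-09). Tigit, an inhibitory receptor, had 175 and 173 CPM in iB-Tregs (A), against 62.5 and 65.8 CPM in SP-Tregs (log2 fold change 1.44 ± 0.09, adjusted p = 1.9e-08). Irf4, the factor that drives effector Treg differentiation, had 157 and 164 CPM in iB-Tregs (A), against 56.4 and 73.4 CPM in SP-Tregs (log2 fold change 1.32 ± 0.12, adjusted p = 3.5e-07), and the costimulator Icos and the regulator Id2 rose with it (1.22 and 0.98). Gzmb (granzyme B) had 59.5 and 58.3 CPM in iB-Tregs (A), against 5.07 and 8.59 CPM in SP-Tregs (log2 fold change 3.17 ± 0.18, adjusted p = 7.3e-09).

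Several genes that mark brain and other non-lymphoid Tregs were lower than in spleen. Il1rl1, which encodes ST2, had 7.13 and 8.32 CPM in iB-Tregs (A), against 34.6 and 50.7 CPM in SP-Tregs (log2 fold change -2.44 ± 0.19, adjusted p = 1.4e-07). Klrg1, a receptor of terminally differentiated cells, had 0.67 and 0.952 CPM in iB-Tregs (A), against 23 and 24.5 CPM in SP-Tregs (log2 fold change -4.86 ± 0.28, adjusted p = 7.5e-09). Penk, the precursor of enkephalins, had 3.78 and 4.86 CPM in iB-Tregs (A), against 50.7 and 61.7 CPM in SP-Tregs (log2 fold change -3.69 ± 0.18, adjusted p = 1.3e-09). All 3 were lower in each co-cultured library than in each splenic one. Gata3 had 59 and 65.4 CPM in iB-Tregs (A), against 186 and 188 CPM in SP-Tregs (log2 fold change -1.59 ± 0.09, adjusted p = 7.3e-09), Rora had 21.5 and 23.6 CPM in iB-Tregs (A), against 95.3 and 114 CPM in SP-Tregs (log2 fold change -2.21 ± 0.12, adjusted p = 3.4e-09), and Maf had 61 and 63.2 CPM in iB-Tregs (A), against 236 and 226 CPM in SP-Tregs (log2 fold change -1.89 ± 0.09, adjusted p = 9.0e-10). These are transcription factors of Th2-like and tissue Tregs. Itgae (CD103), an integrin chain of cells in epithelia, fell too (log2 fold change -2.30 ± 0.15, adjusted p = 3.0e-08), as did Prdm1 (Blimp-1), a factor of effector Tregs (log2 fold change -1.34 ± 0.15, adjusted p = 3.7e-06). Areg had 0.909 and 1.2 CPM in iB-Tregs (A), against 2.54 and 3.12 CPM in SP-Tregs (log2 fold change -1.40 ± 0.46, adjusted p = 0.015), and Il10 had 3.16 and 2.51 CPM in iB-Tregs (A), against 1.09 and 1.3 CPM in SP-Tregs (log2 fold change 1.26 ± 0.49, adjusted p = 0.032). Both are near the lower limit of what these depths can measure, and their calls were lost without either iB-Treg (A) library, that of Areg also without SP-10 and that of Il10 also without SP-9. Pparg (2.3 and 2.36 CPM in iB-Tregs (A), against 0.725 and 2.34 CPM in SP-Tregs), Batf (32.3 and 29.1 CPM in iB-Tregs (A), against 31.3 and 32.8 CPM in SP-Tregs), Pdcd1 (PD-1, 83.6 and 79.1 CPM in iB-Tregs (A), against 75.9 and 56.5 CPM in SP-Tregs) and Ccr4 (59.2 and 70.8 CPM in iB-Tregs (A), against 47.5 and 59.1 CPM in SP-Tregs) did not pass.

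Of 37 genes that the study names, 34 could be tested. Of these, 13 were higher and 15 lower, against 40.8% and 34% of all genes tested. The median was 0.20, against -0.16 with the length trend removed and -0.05 without SP-9. The study shows many of these genes for the same samples, so that the count is no independent evidence. Htr7, the serotonin receptor, and Npy (neuropeptide Y) had no count in any of the 4 libraries, which with 3 counts as the limit allows up to 0.0734 CPM in iB-Tregs (A) and 0.32 CPM in SP-Tregs, and Sema5b was near 0 as well. Spp1 (osteopontin) had 129.7 and 136 CPM in iB-Tregs (A) and no count in SP-Tregs (at least 414-fold higher). Macrophages and microglia also make Spp1, and their part in it was not tested. Ednrb, the endothelin receptor B, had 1.91 and 2.76 CPM in iB-Tregs (A) and no count in SP-Tregs (at least 7.26-fold higher).

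The program of resting and recirculating T cells was lower almost throughout. Of 25 tested members of the naive and lymphoid list 22 were lower, with a median of -2.11. Lef1, a factor of naive T cells, had 32.6 and 33.7 CPM in iB-Tregs (A), against 377 and 373 CPM in SP-Tregs (log2 fold change -3.50 ± 0.09, adjusted p = 7.6e-12). Its relative Tcf7 (TCF-1) had 156 and 159.7 CPM in iB-Tregs (A), against 809 and 769 CPM in SP-Tregs (log2 fold change -2.32 ± 0.09, adjusted p = 1.5e-10). Foxp1, which holds T cells in quiescence, had 95.6 and 99.2 CPM in iB-Tregs (A), against 530.2 and 469 CPM in SP-Tregs (log2 fold change -2.36 ± 0.09, adjusted p = 2.3e-10). In all of these the splenic level was several times that of the co-cultured cells. Klf2, the factor that switches on the receptors for leaving lymphoid organs, had 66 and 68.2 CPM in iB-Tregs (A), against 273 and 293 CPM in SP-Tregs (log2 fold change -2.07 ± 0.09, adjusted p = 4.5e-10), and its target S1pr1 had 107 and 107 CPM in iB-Tregs (A), against 399.9 and 374 CPM in SP-Tregs (log2 fold change -1.85 ± 0.08, adjusted p = 9.0e-10). Il7r, the survival receptor of resting T cells, had 61.2 and 58.4 CPM in iB-Tregs (A), against 253 and 264 CPM in SP-Tregs (log2 fold change -2.11 ± 0.09, adjusted p = 3.8e-10). The homing receptor Ccr7 fell by less, with a log2 fold change of -1.30. Cxcr5, the receptor for B cell follicles, had 8.51 and 9.32 CPM in iB-Tregs (A), against 85.2 and 89.8 CPM in SP-Tregs (log2 fold change -3.29 ± 0.12, adjusted p = 1.5e-10).

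The steepest fall of the list, and among called protein-coding genes of at least 50 CPM, was that of Dtx1. Dtx1 (deltex 1) is a ubiquitin ligase of the Notch pathway. It had 0.718 and 0.451 CPM in iB-Tregs (A), against 431 and 484 CPM in SP-Tregs (log2 fold change -9.58 ± 0.17, adjusted p = 1.2e-12), near 0 in co-cultured cells and abundant in spleen. The 2 members that were higher were Bcl2, a survival factor, with 573 and 617 CPM in iB-Tregs (A), against 271 and 284 CPM in SP-Tregs (log2 fold change 1.10 ± 0.09, adjusted p = 1.3e-07), and Rasgrp2, an activator of Rap1. Rasgrp2 had 33.6 and 31.4 CPM in iB-Tregs (A), against 1.81 and 0.52 CPM in SP-Tregs, and lies in a run of neighboring genes near 0 in SP-Tregs that is described further below. Igfbp4 did not pass the test (138 and 136 CPM in iB-Tregs (A), against 148 and 151 CPM in SP-Tregs).

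Every member of both cell cycle lists was higher. All 24 genes of G1 and S phase rose, with a median log2 fold change of 1.89, and all 24 genes of G2 and mitosis rose, with a median of 3.41, against 40.8% of all genes tested. Mki67 (Ki-67), a marker of cycling cells added after its values were seen, had 772 and 803 CPM in iB-Tregs (A), against 170.2 and 129 CPM in SP-Tregs (log2 fold change 2.39 ± 0.12, adjusted p = 1.6e-09). The summed level of the G2/M list was 3240 and 3360 CPM in iB-Tregs (A), against 411.2 and 360.1 CPM in SP-Tregs. Aurkb, the kinase of the chromosomal passenger complex, had 86.6 and 79.4 CPM in iB-Tregs (A), against 2.17 and 3.9 CPM in SP-Tregs (log2 fold change 4.84 ± 0.20, adjusted p = 3.7e-10). Cdc20, which activates the anaphase-promoting complex, had 125 and 121 CPM in iB-Tregs (A), against 6.16 and 3.64 CPM in SP-Tregs (log2 fold change 4.59 ± 0.17, adjusted p = 1.2e-10), and cyclin B1 (Ccnb1) had 54.9 and 57 CPM in iB-Tregs (A), against 2.17 and 2.6 CPM in SP-Tregs (log2 fold change 4.57 ± 0.20, adjusted p = 5.9e-10). Birc5 (survivin) and Ube2c, a ubiquitin-conjugating enzyme of mitotic exit, had log2 fold changes of 4.13 and 4.11. Kif11, a spindle motor, showed the largest change (log2 fold change 5.30 ± 0.15, adjusted p = 1.5e-11) and lies in another run of neighbors near 0 in SP-Tregs.

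In G1 and S phase, E2f1, a factor that opens the S phase program, had 32 and 28.8 CPM in iB-Tregs (A), against 0.725 and 2.08 CPM in SP-Tregs (log2 fold change 4.55 ± 0.30, adjusted p = 2.5e-08). Cdc6, which loads the replicative helicase, had 32.7 and 29.9 CPM in iB-Tregs (A), against 3.44 and 2.34 CPM in SP-Tregs (log2 fold change 3.39 ± 0.23, adjusted p = 2.9e-08), and Rrm2, the regulated subunit of ribonucleotide reductase, had 101.7 and 103 CPM in iB-Tregs (A), against 11.2 and 13.8 CPM in SP-Tregs (log2 fold change 3.05 ± 0.13, adjusted p = 5.9e-10). Cyclin E1 (Ccne1) and Cdc45 and Gins2 of the moving helicase had log2 fold changes of 2.90, 2.66 and 2.41. The change was thus smaller in most G1/S genes than in G2/M genes, with 18 of 24 and 24 of 24 beyond 2-fold, and the difference between the lists was not tested.

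The promoters of the G2/M genes share motifs that the choice of the list did not use, and the stretches of the 4 members with both motifs close to the start are shown for that reason. Promoter sequence comes from RefSeq (250 bases before the start of each gene, GRCm38.p6), which holds 20 of the 24 genes and 9149 of the genes tested. CCAAT, the box that NF-Y binds, was found on either strand in 18 of these 20 promoters (90%), against 36.6% of the promoters of all genes tested. TTTGAA, the core of the cell cycle homology region, was found in 7 of 20 (35%), against 10.5%, and both motifs together in 7 of 20, against 4.11%. In the G1/S list CCAAT was found in 12 of 20 promoters (60%), TTTGGCGC, an E2F motif, in 2 of 20 (10%), against 0.863% of all, and TTTCCCGC, another E2F motif, in 3 of 20 (15%), against 1.85%. CCAAT was as frequent in the cholesterol synthesis list, described below, with 13 of 14 promoters (92.9%). A match is a description and not a site, and over all genes that rose CCAAT was found in 38% of promoters, against 34.4% over all that fell. The last 120 bases before the start are given 5′ to 3′ along the gene, with CCAAT and TTTGAA on either strand in capitals (ATTGG and TTCAAA on the other one). Cdc20 and Ube2c were described above. Top2a is the topoisomerase that untangles chromosomes, and Cdk1 is the mitotic kinase, and both are shown for their motifs. Top2a had 495 and 531 CPM in iB-Tregs (A), against 67.4 and 60.6 CPM in SP-Tregs (log2 fold change 3.00 ± 0.10, adjusted p = 5.8e-11), and Cdk1 had 67.4 and 73.3 CPM in iB-Tregs (A), against 6.16 and 4.16 CPM in SP-Tregs (log2 fold change 3.72 ± 0.18, adjusted p = 1.2e-09).
Top2a (chr11:99024190-99024309, minus strand): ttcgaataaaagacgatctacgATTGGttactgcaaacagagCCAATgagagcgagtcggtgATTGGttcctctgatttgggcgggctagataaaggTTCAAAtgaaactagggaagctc
Cdc20 (chr4:118437344-118437463, minus strand): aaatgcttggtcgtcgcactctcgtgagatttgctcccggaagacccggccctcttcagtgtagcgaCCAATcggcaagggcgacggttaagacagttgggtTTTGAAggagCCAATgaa
Ube2c (chr2:164769809-164769928, plus strand): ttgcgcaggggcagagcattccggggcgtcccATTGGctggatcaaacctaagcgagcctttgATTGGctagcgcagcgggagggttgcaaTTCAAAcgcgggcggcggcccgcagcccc
Cdk1 (chr10:69352913-69353032, minus strand): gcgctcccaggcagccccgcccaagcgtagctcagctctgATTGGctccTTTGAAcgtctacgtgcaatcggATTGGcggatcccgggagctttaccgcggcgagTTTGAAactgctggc

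Metabolic genes of growing T cells rose in most lists. Of 16 tested glycolytic genes 11 were higher and 3 lower, with a median of 1.40. Hk2, the inducible hexokinase, had 76.3 and 77 CPM in iB-Tregs (A), against 6.7 and 7.02 CPM in SP-Tregs (log2 fold change 3.48 ± 0.15, adjusted p = 4.9e-10). Slc16a3, which exports lactate, had 119 and 114 CPM in iB-Tregs (A), against 6.34 and 3.9 CPM in SP-Tregs (log2 fold change 4.44 ± 0.17, adjusted p = 1.5e-10), and Ldha, which makes it, had 1076 and 1015 CPM in iB-Tregs (A), against 203 and 228 CPM in SP-Tregs (log2 fold change 2.28 ± 0.10, adjusted p = 4.3e-10). Pkm and Eno1, enzymes of the lower pathway, had log2 fold changes of 2.08 and 2.06. The glucose transporter Slc2a3 fell, with 31.3 and 35.9 CPM in iB-Tregs (A), against 103 and 91.1 CPM in SP-Tregs (log2 fold change -1.54 ± 0.11, adjusted p = 6.4e-08), and so did Pdk1, a brake on pyruvate oxidation (-0.78). Gapdh was called lower (11.2 and 10.7 CPM in iB-Tregs (A), against 15.4 and 17.2 CPM in SP-Tregs), but has many near-identical copies in the genome between which its reads may be lost, and is uncertain. Its call was lost without either iB-Treg (A) library.

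Amino acid uptake and synthesis were measured together with targets of c-Myc. Of 24 genes of this list 20 were higher and 3 lower, with a median of 1.12. Asns, which makes asparagine, had 139.8 and 142 CPM in iB-Tregs (A), against 0.906 and 1.04 CPM in SP-Tregs (log2 fold change 7.18 ± 0.19, adjusted p = 1.1e-11), near 0 in spleen and abundant after co-culture. Phgdh, the entry enzyme of serine synthesis, had 338 and 307 CPM in iB-Tregs (A), against 27.4 and 29.1 CPM in SP-Tregs (log2 fold change 3.52). Psat1, the next enzyme of that pathway, had 237 and 238 CPM in iB-Tregs (A), against 31.9 and 32.3 CPM in SP-Tregs (log2 fold change 2.89). Slc7a5, the transporter of large neutral amino acids, had 378 and 386 CPM in iB-Tregs (A), against 39.9 and 46.3 CPM in SP-Tregs (log2 fold change 3.16 ± 0.10, adjusted p = 5.2e-11). Shmt2, the mitochondrial serine hydroxymethyltransferase, and the glutamine transporter Slc1a5 rose as well (2.75 and 2.31). The lower ones were Ncl (nucleolin, -0.97), Gart of purine synthesis (-0.53) and the transporter Slc38a1 (-0.55). With the length trend removed Slc38a1 came out higher, at 0.34.

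Cholesterol synthesis moved less. Of 20 tested genes 12 rose, 1 fell and 7 did not pass, with a median of 0.45. Insig1, the sterol sensor that answers to sterol-regulated transcription, had 104 and 106 CPM in iB-Tregs (A), against 38.1 and 48.1 CPM in SP-Tregs (log2 fold change 1.30 ± 0.12, adjusted p = 4.2e-07). Mvd, of the mevalonate pathway, had 25.3 and 21.2 CPM in iB-Tregs (A), against 8.52 and 7.28 CPM in SP-Tregs (log2 fold change 1.54 ± 0.20, adjusted p = 1.4e-05), and squalene epoxidase (Sqle) had 42.3 and 41.6 CPM in iB-Tregs (A), against 24.6 and 25.8 CPM in SP-Tregs (log2 fold change 0.74 ± 0.12, adjusted p = 0.00014).

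The response to IL-2 and STAT5 moved in both directions. Of 25 members 14 rose and 9 fell, with a median of 0.30, or 11 rose and 11 fell with the length trend removed (median 0.05). Over all genes tested 40.8% rose and 34% fell. Cish, a feedback inhibitor induced by STAT5, had 821 and 798 CPM in iB-Tregs (A), against 172 and 212 CPM in SP-Tregs (log2 fold change 2.08 ± 0.10, adjusted p = 2.0e-09). Pim1, a survival kinase, had 811 and 808 CPM in iB-Tregs (A), against 213 and 240.1 CPM in SP-Tregs (log2 fold change 1.84 ± 0.09, adjusted p = 2.0e-09), and Lta (lymphotoxin alpha) had 113 and 112 CPM in iB-Tregs (A), against 20.1 and 21.3 CPM in SP-Tregs (log2 fold change 2.44 ± 0.11, adjusted p = 1.1e-09). The genes of STAT5 itself did not rise: Stat5b had 150.3 and 153 CPM in iB-Tregs (A), against 258 and 284 CPM in SP-Tregs (log2 fold change -0.84 ± 0.09, adjusted p = 1.6e-06). Bcl6, a transcriptional repressor that STAT5 opposes, drives the follicular helper program. It fell to 7.75 and 7.52 CPM in iB-Tregs (A), against 47.3 and 49.7 CPM in SP-Tregs (log2 fold change -2.66 ± 0.14, adjusted p = 3.8e-09). The cyclins Ccnd2 and Ccnd3 fell with log2 fold changes of -0.79 and -0.71, and Socs1 and Socs3 did not pass.

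Cytokine transcripts differed gene by gene. Of 21 measured cytokine genes 10 could be tested, with 5 higher and 3 lower (median 0.36), or 3 and 3 with the length trend removed. These counts lie near the shares over all genes tested, 40.8% higher and 34% lower. The summed level of the list was 1102 and 1072 CPM in iB-Tregs (A), against 701 and 730.1 CPM in SP-Tregs. Ifng (interferon gamma) had 0.335 and 0.651 CPM in iB-Tregs (A), against 3.08 and 2.86 CPM in SP-Tregs (log2 fold change -2.58 ± 0.52, adjusted p = 0.0006), a call that was lost without A-Treg1. Tnf had 20.6 and 20.6 CPM in iB-Tregs (A), against 37 and 35.4 CPM in SP-Tregs (log2 fold change -0.81 ± 0.13, adjusted p = 8.7e-05). Tgfb1, the main form of TGF-beta in immune cells, had 339 and 329 CPM in iB-Tregs (A), against 190.4 and 211 CPM in SP-Tregs (log2 fold change 0.74 ± 0.09, adjusted p = 6.1e-06), and Tnfsf11 (RANKL) had 63.3 and 70.9 CPM in iB-Tregs (A), against 33.9 and 35.1 CPM in SP-Tregs (log2 fold change 0.96 ± 0.12, adjusted p = 7.7e-06). Il2, Il4, Il17a and Il21 had too few counts to test in either group (named after their values were seen). Of 9 tested cytotoxic genes 5 were higher and 1 lower (median 0.52), or 4 and 3 with the length trend removed (median 0.02). With the trend removed, these counts too lie near the shares of 40.8% and 34%. Nkg7, a protein of cytotoxic granules, had 48.9 and 47.1 CPM in iB-Tregs (A), against 4.35 and 5.2 CPM in SP-Tregs (log2 fold change 3.35 ± 0.18, adjusted p = 3.4e-09), and Ctsw (cathepsin W) had 117 and 113 CPM in iB-Tregs (A), against 21.6 and 16.7 CPM in SP-Tregs (log2 fold change 2.56 ± 0.13, adjusted p = 1.9e-09). Perforin (Prf1) had 2.34 and 2.86 CPM in iB-Tregs (A), against 5.25 and 4.42 CPM in SP-Tregs (log2 fold change -0.91 ± 0.35, adjusted p = 0.03), a call that was lost without either iB-Treg (A) library and without SP-9.

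Among 22 tested costimulatory and inhibitory receptors 10 were higher and 9 lower, near the shares over all genes tested (40.8% and 34%). Their median was 0.27, or -0.17 with the length trend removed and 0.08 without SP-9. Lag3, which binds MHC class II, had 243 and 238 CPM in iB-Tregs (A), against 15.9 and 12.5 CPM in SP-Tregs (log2 fold change 4.05 ± 0.12, adjusted p = 3.1e-11). Havcr2 (TIM-3) had 6.27 and 8.92 CPM in iB-Tregs (A), against 0.362 and 0.781 CPM in SP-Tregs (log2 fold change 3.80 ± 0.53, adjusted p = 2.7e-05), and Cd28, the target of the antibody in the culture, had 127 and 133 CPM in iB-Tregs (A), against 41.3 and 41.4 CPM in SP-Tregs (log2 fold change 1.66 ± 0.10, adjusted p = 1.1e-08). Among the lower ones were Btla, Cd226 and Cd27. Btla had 11 and 15 CPM in iB-Tregs (A), against 116 and 95 CPM in SP-Tregs (log2 fold change -3.03 ± 0.15, adjusted p = 2.0e-09), the activating receptor Cd226 had 16.4 and 15.2 CPM in iB-Tregs (A), against 103 and 116 CPM in SP-Tregs (log2 fold change -2.79 ± 0.11, adjusted p = 3.2e-10), and Cd27 had 111 and 99.6 CPM in iB-Tregs (A), against 217 and 232 CPM in SP-Tregs (log2 fold change -1.09 ± 0.09, adjusted p = 2.2e-07). Cd40lg (CD40 ligand) and Cd96 fell with log2 fold changes of -2.78 and -1.42.

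Receptors for migration were lower, apart from a few. Of 26 tested chemokine and homing receptors 18 were lower and 3 higher, with a median of -1.42. Ccr6, the receptor for CCL20, had 1.00 and 0.802 CPM in iB-Tregs (A), against 26.6 and 27.6 CPM in SP-Tregs (log2 fold change -4.89 ± 0.26, adjusted p = 3.3e-09). Ccr9, a receptor for the gut, had 0.383 and 0.651 CPM in iB-Tregs (A), against 10.7 and 10.7 CPM in SP-Tregs (log2 fold change -4.35). Gpr15, another gut receptor, had 0.622 and 0.451 CPM in iB-Tregs (A), against 12.5 and 19 CPM in SP-Tregs (log2 fold change -4.82). Ccr10, a receptor for skin, and Ccr3 fell as well, at low levels (-4.45 and -3.06). The higher ones were Ccr8, the myeloid marker Cx3cr1 and S1pr4 (81.2 and 77.7 CPM in iB-Tregs (A), against 58.2 and 72.3 CPM in SP-Tregs). S1pr4 lost its call under several scalings, without SP-9 and without either iB-Treg (A) library, and turned to -0.19 with the length trend removed, and Selplg (the selectin ligand PSGL-1), not past the threshold at 0.03, turned to -0.22.

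Immediate early genes were higher. Of 21 members 18 rose and 1 fell, with a median of 1.93. Fosl2, a part of AP-1, had 174 and 177 CPM in iB-Tregs (A), against 6.16 and 5.98 CPM in SP-Tregs (log2 fold change 4.85). Jun, another part of AP-1, had 291 and 269.9 CPM in iB-Tregs (A), against 19.4 and 20.3 CPM in SP-Tregs (log2 fold change 3.82). Nr4a2, a nuclear receptor induced by T cell receptor signals, had 22.9 and 24.1 CPM in iB-Tregs (A), against 2.17 and 2.08 CPM in SP-Tregs (log2 fold change 3.45 ± 0.25, adjusted p = 6.0e-08). Atf3, a stress-responsive factor, had 35.9 and 34.3 CPM in iB-Tregs (A) and no count in SP-Tregs (at least 109.6-fold higher). Egr2 had 25 and 25.3 CPM in iB-Tregs (A), against 0.181 and 0 CPM in SP-Tregs and also lies in a run of neighbors near 0 in SP-Tregs, while Egr1, a relative outside such a run, had 136 and 132 CPM in iB-Tregs (A), against 123 and 121 CPM in SP-Tregs and did not pass (adjusted p = 0.17). The gene that fell was Btg2, which restrains proliferation, with 31.5 and 29.7 CPM in iB-Tregs (A), against 147 and 148 CPM in SP-Tregs (log2 fold change -2.27 ± 0.09, adjusted p = 4.3e-10).

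The feedback genes of NF-kB divided, 6 higher and 6 lower of 14, near the shares over all genes tested (40.8% and 34%). Nfkbia, the inhibitor of NF-kB, had 664 and 634 CPM in iB-Tregs (A), against 179 and 186 CPM in SP-Tregs (log2 fold change 1.83 ± 0.09, adjusted p = 1.3e-09), and Tnfaip3 (A20) had 355 and 363 CPM in iB-Tregs (A), against 132 and 139.7 CPM in SP-Tregs (log2 fold change 1.41 ± 0.09, adjusted p = 1.2e-08). Tnip1, a partner of A20, moved the other way with 124 and 127 CPM in iB-Tregs (A), against 311 and 309.9 CPM in SP-Tregs (log2 fold change -1.31 ± 0.08, adjusted p = 1.5e-08), as did Cflar, an inhibitor of caspase 8 (-1.17). Nfkb1 did not pass at -0.05, and came out at 0.55 with the length trend removed. Genes of apoptosis and survival also divided, 7 higher and 7 lower of 14, against the same shares over all genes tested. Those that carry out the p53 response, Bax, Bbc3 (PUMA) and Pmaip1 (NOXA), had log2 fold changes of 2.50, 2.21 and 1.60. Bax had 108 and 96.2 CPM in iB-Tregs (A), against 18.7 and 17.2 CPM in SP-Tregs (log2 fold change 2.50 ± 0.13, adjusted p = 2.4e-09). Casp8, the caspase of death receptors, had 92.7 and 87.8 CPM in iB-Tregs (A), against 217 and 177 CPM in SP-Tregs (log2 fold change -1.13 ± 0.10, adjusted p = 5.4e-07), and Bcl2l1 (BCL-XL) had 21.3 and 25.6 CPM in iB-Tregs (A), against 39.7 and 44.5 CPM in SP-Tregs (log2 fold change -0.84 ± 0.14, adjusted p = 0.00013).

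Of 20 tested interferon response genes 9 were higher and 7 lower, with a median of 0.32, or 7 and 9 with the length trend removed (median 0.25). These counts lie near the shares over all genes tested, 40.8% higher and 34% lower. Bst2 (tetherin) had 62 and 61.2 CPM in iB-Tregs (A), against 8.7 and 7.81 CPM in SP-Tregs (log2 fold change 2.89 ± 0.15, adjusted p = 2.5e-09). Oas2 was higher (3.80), a call that DESeq2 did not make, and Ifit1 lower (-1.25). Macrophages also respond to interferon, and their part in the higher genes was not tested.

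Contact and TGF-beta genes were measured because astrocytes touch the Tregs and because brain Tregs carry neural genes. Of 16 tested Notch and semaphorin genes 6 were higher and 6 lower, near the shares over all genes tested (40.8% and 34%). Rbpj, the DNA-binding partner of Notch, had 316 and 329 CPM in iB-Tregs (A), against 62.7 and 61.4 CPM in SP-Tregs (log2 fold change 2.38 ± 0.09, adjusted p = 2.2e-10), while Notch1 had 177 and 178 CPM in iB-Tregs (A), against 477 and 430.1 CPM in SP-Tregs (log2 fold change -1.36 ± 0.09, adjusted p = 1.8e-08). Nrp2, a semaphorin coreceptor, had 92.8 and 95.1 CPM in iB-Tregs (A), against 2.9 and 0.52 CPM in SP-Tregs (log2 fold change 5.61). The plexin Plxnb2, a semaphorin receptor, had 138 and 141 CPM in iB-Tregs (A), against 3.26 and 3.64 CPM in SP-Tregs (log2 fold change 5.35). Nrp2 and Plxnb2 were low in SP-Tregs, as the myeloid markers were, and the part of myeloid cells in them was not tested. Sema4d, a semaphorin of T cells, had 216 and 221 CPM in iB-Tregs (A), against 441 and 466 CPM in SP-Tregs (log2 fold change -1.05 ± 0.08, adjusted p = 1.3e-07). Notch2 was called lower (-0.31) but came out at 0.20 with the length trend removed, and lost its call without A-Treg1. Of 17 tested TGF-beta and retinoid genes 11 were lower and 4 higher, with a median of -0.60. Tgfbr2, the ligand-binding receptor, had 126 and 133 CPM in iB-Tregs (A), against 335 and 359 CPM in SP-Tregs (log2 fold change -1.42 ± 0.09, adjusted p = 1.0e-08), and the coreceptor Tgfbr3 had 0.526 and 0.651 CPM in iB-Tregs (A), against 26.8 and 22.6 CPM in SP-Tregs (log2 fold change -5.38 ± 0.29, adjusted p = 4.0e-09). Smad4 and Smad7, the shared transducer and the feedback inhibitor, fell by 1.14 and 1.05 on the log2 scale, and the retinoic acid receptors Rarg and Rara fell by 1.67 and 1.03.

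The largest rises and falls were then listed among called protein-coding genes that reached 50 CPM in the higher group. Of the 15 largest rises 14 had no count in SP-Tregs. Several are genes of macrophages: Spp1, Lyz2, Tyrobp, Msr1 (a scavenger receptor, at least 263-fold higher) and Ms4a7 (at least 244-fold higher). Cd63, a tetraspanin of late endosomes, had no count in SP-Tregs either (at least 389-fold higher). Vegfa, the vascular growth factor, had 79 and 83.3 CPM in iB-Tregs (A) and no count in SP-Tregs (at least 253-fold higher). Dab2, an endocytic adaptor, and Tead1, a factor of the Hippo pathway, were at least 247-fold higher and at least 258-fold higher. The other 6 were Arf4, Ehd1, Cxcl16, Fam20c, Ranbp1 and Fam91a1. Arf4, a small GTPase of the Golgi, had 184 and 198 CPM in iB-Tregs (A) and no count in SP-Tregs (at least 596-fold higher), and Ehd1 of endocytic recycling had 172 and 166 CPM in iB-Tregs (A) and no count in SP-Tregs (at least 526-fold higher). These 6 lie beside other genes that are near 0 in SP-Tregs.

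Such genes stood in runs along the chromosomes. Of 9968 genes with at least 5 CPM in iB-Tregs (A), 286 were more than 32 times lower in SP-Treg and also in Tregs from ischemic brain (Ischemia-Treg), and 93 of them lay in 29 unbroken runs of neighbors, 16 runs with at least 3 genes. The longest held 9 genes on chromosome 19 (chr19:6227765-6415216, GRCm38): Ppp2r5b, Atg2a, Ehd1, Cdc42bpg, Men1, Map4k2, Sf1, Pygm and Rasgrp2, named for their place after the values were seen. Sf1, a splicing factor of most cells, had 7712 and 7200 counts in iB-Tregs (A), against 9 and 4 counts in SP-Tregs. Map4k2 had 5871 and 5366 counts in iB-Tregs (A), against 8 and 11 in SP-Tregs. The 5 expressed genes on either side had 1 to 1088 counts in the SP-Treg libraries. A few runs hold clustered macrophage genes, such as C1qa, C1qb and C1qc, and others hold genes of unrelated function. The cause of the runs was not tested, and neither was that of the near-zero genes outside them. Without the genes of the runs, 4906 genes were higher and 4134 lower.

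**Figure D4:**
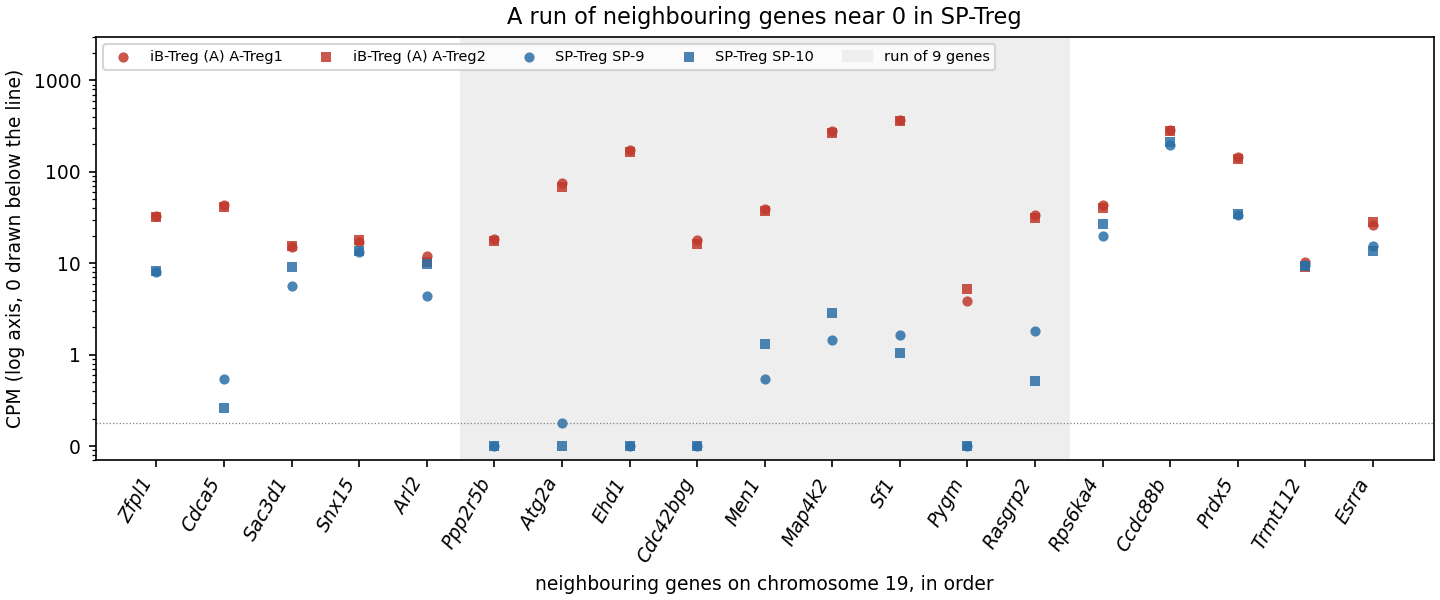
Level in CPM (log axis, 0 drawn below the dotted line) of 19 neighboring genes on chromosome 19 in gene order, iB-Treg (A) in red and SP-Treg in blue, with a circle and a square for the 2 libraries of a group. The 9 genes of the run (shaded) lie below 3 CPM in both SP-Treg libraries, while in iB-Treg (A) they reach from 3.83 to 369 CPM.

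Among the 15 largest falls 8 were histone genes. The histone class counted here also holds genes named H2af, H3f and H1f. It took 0.228 ± 0.00988% of all counts in iB-Tregs (A) and 0.212 ± 0.0265% in SP-Tregs, so that its summed share was not lower. These shares are without TMM scaling, and that of the Hist genes alone was not taken. Hist1h1c, a linker histone, had 19.2 and 15.2 CPM in iB-Tregs (A), against 572 and 559 CPM in SP-Tregs (log2 fold change -5.04 ± 0.12, adjusted p = 4.5e-12), and Hist1h4d had 1.1 and 0.952 CPM in iB-Tregs (A), against 219 and 203 CPM in SP-Tregs (log2 fold change -7.67 ± 0.15, adjusted p = 1.2e-12). Most histone mRNAs lack a poly(A) tail, and all 8 tested members of the list of RNA without such a tail were lower. Hist1h1c and Hist1h4d are themselves among the 8. 7SK RNA (Rn7sk), a small nuclear RNA, had 7.89 and 6.06 CPM in iB-Tregs (A), against 7649 and 6319.7 CPM in SP-Tregs. The kit named for these libraries selects poly(A) RNA, and histone levels and cell cycle cannot be compared here apart from this difference in makeup. Titin (Ttn), with an exonic length of 117334 bases, had 8.23 and 6.81 CPM in iB-Tregs (A), against 1427 and 1027 CPM in SP-Tregs (log2 fold change -7.35 ± 0.18, adjusted p = 6.4e-12). Ms4a4b, a membrane protein of T cells, had 16.4 and 18.7 CPM in iB-Tregs (A), against 441 and 399.6 CPM in SP-Tregs (log2 fold change -4.59 ± 0.11, adjusted p = 4.5e-12), and Rflnb, Sidt1 and Ehd3 fell with log2 fold changes of -6.60, -5.08 and -4.55.

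Fold changes ran with gene length. In 5 equal classes of the protein-coding genes by exonic length, shortest to longest, the median log2 fold change was 0.71, 0.44, 0.22, -0.02 and -0.42. Of the shortest class 58.5% were higher and 14.9% lower, and of the longest class 25.6% were higher and 54.8% lower. With this trend removed, 4661 genes were higher and 4081 lower. The G2/M list then had a median of 3.27, the G1/S list 1.79, the naive and lymphoid list -2.17 and the microglia and macrophage list 7.13. The medians of these 4 lists lay close to those without the correction. Those of the tissue Treg and costimulatory lists and of the genes named by the study changed sign, as given above, and so did that of the cytokine list (-0.01) and of the apoptosis and survival list, at 0.16 without the correction and -0.02 with it.

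**Figure D5:**
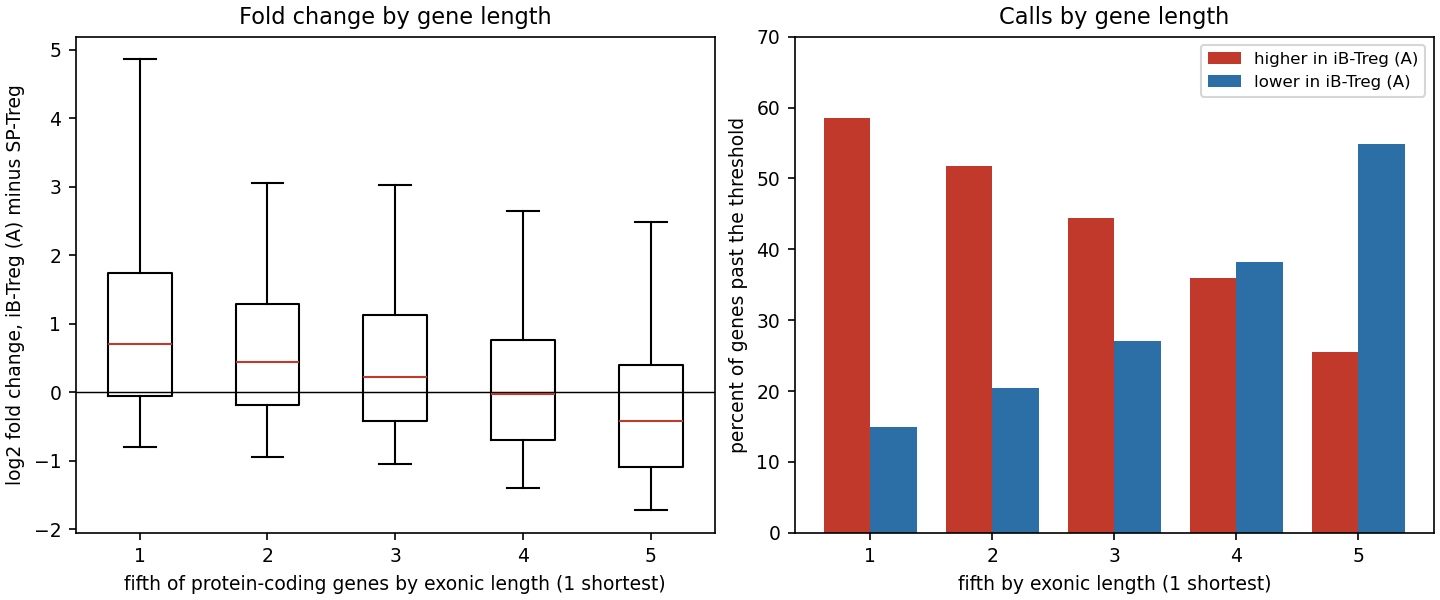
Left, log2 fold change (iB-Treg (A) minus SP-Treg) of protein-coding genes in 5 classes of exonic length, with the median in red, boxes from the lower to the upper quartile and whiskers to the 10th and 90th percentile. Right, percent of each class higher (red) and lower (blue) in iB-Treg (A): from the shortest to the longest class the higher share falls to 25.6% and the lower share reaches 54.8%.

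Genes of the Y chromosome were looked at after their values were seen. Kdm5d had 10.3 and 9.47 CPM in iB-Tregs (A), against 88.8 and 72.1 CPM in SP-Tregs, and Uty had 3.06 and 4.06 CPM in iB-Tregs (A), against 54.9 and 58.3 CPM in SP-Tregs. Ddx3y and Eif2s3y were lower too, with log2 fold changes of -2.26 and -0.83. The labels give no sex of the mice, and whether the groups differ in it was not tested.

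For the genes that set tissue Tregs apart, the other libraries of the series give a scale, with all 10 libraries scaled together and no test made, since these comparisons share the SP-Treg libraries. Il1rl1 had 7.26 and 8.41 CPM in iB-Treg (A), 189.7 and 195.9 CPM with IL-33 and serotonin added (iB-Treg (B)), and 199.6 and 193 CPM with the chemokines CCL1 and CCL20 as well (iB-Treg (C)). Tregs from ischemic brain had 389 and 269 CPM of it, and SP-Tregs had 34.9 and 50.8 CPM. Klrg1 had 0.682 and 0.963 CPM in iB-Treg (A), 24.4 and 25 CPM in iB-Treg (B), 25.9 and 27.7 CPM in iB-Treg (C), 55.3 and 34.3 CPM in Tregs from ischemic brain, and 23.2 and 24.5 CPM in SP-Tregs. For both genes, the libraries of the co-culture alone were the lowest of the series. Ctla4 was high in every co-culture, at 602 and 643 CPM in iB-Treg (A), 577 and 578 CPM in iB-Treg (B), and 563 and 583 CPM in iB-Treg (C), against 235 and 259.6 CPM in Tregs from ischemic brain and 37.1 and 38.3 CPM in SP-Tregs. Areg had 0.925 and 1.22 CPM in iB-Treg (A) and at most 7.38 CPM in the other co-cultures, while Tregs from ischemic brain had 291 and 194.8 CPM and SP-Tregs 2.56 and 3.13 CPM.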

How the data were processed

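For RNA of hCD2+ Tregs the methods name a stranded kit with poly(A) selection and do not set the groups apart. The RNA makeup given above differed between the groups. Whether the SP-Treg libraries were made with this kit was not tested. The authors deposited raw counts per gene (whole numbers, neither normalized nor pooled), with an exonic length per gene that was used here for the length classes. The methods name Trim Galore, HISAT2 and featureCounts, and the submitters' notes name HISAT2 2.0.1 and HTSeq 0.6.1. The sources used here do not give which of these produced the counts. The build is GRCm38, and symbols and biotypes came from GENCODE for all 25404 IDs used. The SP-Treg columns run 172 rows past the last ID. Their counts were taken from 0 to 19 rows below each ID in 8 stretches, and the other 29997 IDs were left out, among them the rows of 24 of 568 different list genes. The rows used held 95.8% and 95.9% of the counts of iB-Treg (A), and 90.3% and 83.7% of those of SP-Treg.

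A quasi-likelihood F test (edgeR 4.0.16 in R 4.3.3, two-sided) was fitted to the 4 libraries, with group as the only term, genes kept by filterByExpr and libraries scaled by TMM, with Benjamini-Hochberg adjusted p under 0.05 as threshold over all 12196 genes tested. The standard error is the size of the log2 fold change divided by the square root of F. DESeq2 1.42.0, other scalings, filters and rows, and leaving out each library were alternatives. Near-zero runs left out and a removed length trend were added after seeing the data. On counts simulated for this comparison (5 runs, 11918 genes, 200 changed), changes of 1.5-fold were found in 55.1%, those of 2-fold in 84.9% and those of 4-fold in 98.1% of cases, and 10.8% of the calls were false. In the data a far larger share of genes was called (74.8% of those tested). The simulated rates therefore do not give the rates of this comparison.

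The members, the 32 gene lists and the rules for naming genes were chosen with earlier results of these data known. Named were all tested genes that the study names, all members of the pan T, Treg, tissue Treg and naive lists, the 15 largest rises and falls, and of each other list up to 6 called members per direction and up to 3 not called. Others are marked as chosen after their values were seen. A few genes that these rules name are not reported here. The counts carry counting error and library spread only.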

Additional observations from a re-analysis of the deposited data

How the results depend on the processing

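No paired analysis was possible because the SP-Treg columns carry no replicate number of the labels. Counting only the rows whose counts stand in place left 2951 genes to test, and 2215 passed, 1219 higher and 996 lower. A change beyond 2-fold was asked for in another alternative, which left 5282 genes. Leaving out one library at a time gave 7046 to 9490 genes past the threshold, 3884 to 5216 higher and 3162 to 4274 lower, with fewest calls without either iB-Treg (A) library. The lone library of a group was then assumed to vary like the pair in the other. DESeq2 called 7943 genes. All other alternatives called between 7170 and 9709 genes, and the share of calls that were higher lay between 51.6% with TMM factors from protein-coding genes and 56.1% without a low-count filter. Directions reversed with the length trend removed (added after seeing the data) for Cd3d (-0.094), Izumo1r (-0.42), Lck (-0.396), Nfkb1 (0.55), Notch2 (0.20), S1pr4 (-0.19), Selplg (-0.22) and Slc38a1 (0.34). The cause was not tested. Of 187 named genes past the threshold, 174 were past it in the same direction under every alternative that tested them, and 11 lost the call under at least 1. Depth limits genes such as Areg, Il10, Prf1 and Ciita, at a few CPM, and SP-Treg libraries were the shallower ones.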
